A study of Mus musculus with 4 samples.

Results

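Fatty acid oxidation genes were described across the immune and endothelial cells of mouse livers that carried a colorectal tumour. The genes were 10 named by symbol, Cpt1a, Cpt2, Acadvl, Acadl, Acadm, Hadha, Hadhb, Acaa2, Etfa and Etfb, of the 31053 genes in the count matrix. The study, by its title and design, asked what exercise before an operation does to hepatic immune cells in a model in which surgical stress promotes liver metastasis. Single-cell RNA libraries (10x, 3' end, v3.1) were made from CD45-positive cells that had been enriched with beads from non-parenchymal liver cells. There were 2 groups of 2 libraries. Ex 1 and Ex 2 came from mice that exercised before surgery (the protocol labels also write PEx). Sed 1 and Sed 2 came from sedentary mice, which carried the same tumour in the same model. All were male mice aged 8 weeks with MC38 tumours, a transplanted mouse colon carcinoma line. The livers were taken 3 weeks after the tumour cells were injected. The labels give no strain, no exercise schedule and no statement that each library came from a separate animal, so the p-values measure only the spread between these samples, which may be technical.

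Mitochondrial beta-oxidation shortens fatty acids in repeated rounds and hands their electrons to the respiratory chain. Long-chain acyl groups enter through the carnitine shuttle, in which Cpt1a on the outer membrane makes acylcarnitine and Cpt2 on the inner membrane turns it back into acyl-CoA. Acyl-CoA dehydrogenases of differing chain length (Acadvl, Acadl, Acadm) take the first oxidation step. The trifunctional protein (Hadha and Hadhb), or in shorter chains Acaa2 at the last step, completes the round, and the electron transfer flavoprotein (Etfa and Etfb) carries electrons from the dehydrogenases onward. Among immune cells this pathway is known for its use by resting and tissue-repair macrophages and by memory and regulatory T cells.

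Promoter sequences are shown for Hadha and Hadhb, because both promoters lie in 1 stretch of genome while these subunits ordered the cell types differently. Those of Cpt1a, with the widest relative range among the classes compared below, and of Etfb, the 1 member called between the groups, are shown as well. Each is the RefSeq window from 250 bases before to 50 bases after the gene's start, 300 bases, on GRCm38.p6, written 5′ to 3′ on the gene's own strand. They lie at chr5:30154931-30155230 (minus strand) for Hadha, chr5:30155003-30155302 (plus strand) for Hadhb, chr19:3323051-3323350 (plus strand) for Cpt1a and chr7:43443822-43444121 (plus strand) for Etfb. Capitals mark the GC box GGGCGG, which Sp1-type factors bind, on either strand.
Hadha: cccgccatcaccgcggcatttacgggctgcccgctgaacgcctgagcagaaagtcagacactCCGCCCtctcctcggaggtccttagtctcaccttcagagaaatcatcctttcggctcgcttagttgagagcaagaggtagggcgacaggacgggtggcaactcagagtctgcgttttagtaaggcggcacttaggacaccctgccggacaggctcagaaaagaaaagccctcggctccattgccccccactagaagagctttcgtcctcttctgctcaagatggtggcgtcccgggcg
Hadhb: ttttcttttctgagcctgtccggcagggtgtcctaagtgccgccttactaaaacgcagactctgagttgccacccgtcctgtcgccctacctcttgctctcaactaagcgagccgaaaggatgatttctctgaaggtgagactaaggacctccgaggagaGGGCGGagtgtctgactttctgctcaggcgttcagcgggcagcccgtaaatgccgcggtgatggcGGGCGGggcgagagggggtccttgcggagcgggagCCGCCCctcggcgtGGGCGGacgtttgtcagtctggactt
Cpt1a: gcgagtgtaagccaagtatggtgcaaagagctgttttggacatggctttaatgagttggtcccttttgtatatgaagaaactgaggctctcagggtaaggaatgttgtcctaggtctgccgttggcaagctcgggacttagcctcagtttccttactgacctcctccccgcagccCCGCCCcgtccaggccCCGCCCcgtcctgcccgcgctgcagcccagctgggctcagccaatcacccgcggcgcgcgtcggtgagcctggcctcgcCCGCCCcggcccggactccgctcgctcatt
Etfb: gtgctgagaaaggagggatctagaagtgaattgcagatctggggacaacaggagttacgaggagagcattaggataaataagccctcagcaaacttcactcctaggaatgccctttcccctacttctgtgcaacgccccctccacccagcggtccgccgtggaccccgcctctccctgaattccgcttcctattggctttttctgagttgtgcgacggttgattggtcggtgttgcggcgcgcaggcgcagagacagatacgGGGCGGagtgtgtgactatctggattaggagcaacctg

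The Hadha and Hadhb windows run on opposite strands and share 228 bases, from 30155003 to 30155230 on chromosome 5, and their RefSeq start sites have 272 bases between them. The GC box of the Hadha window is thus also one of the 4 in the Hadhb window. GC boxes were found 3 times in the Cpt1a window and 1 time in the Etfb window. RefSeq windows matched 9 of the 10 members by symbol, all but Acaa2. Of the 9, 6 held a GC box (Acadl, Cpt2, Hadha, Hadhb, Etfb and Cpt1a), against 35.7% of 32851 mouse promoter windows of this length. The ETS element CCGGAAGT, the kind of site bound by GABP, was found in 1 of the 9, Cpt2, against 3.89% of all windows. The hexamer AGGTCA, which PPAR and other nuclear receptors bind in repeats, was found in 3 of the 9 (Cpt1a, Acadvl and Acadm), against 16.3% of all windows. The estrogen-related receptor site TCAAGGTCA, which contains that hexamer (0.423% of all windows), and the E-box CACGTG (7.15%) were in none of the 9. Both strands were searched, and no match says only that these letters are not in these 300 bases. In GENCODE vM21 (GRCm38) Hadha lies on chromosome 5 from 30118304 to 30155162 and Hadhb from 30155248 to 30184593, Cpt1a on chromosome 19 from 3322334 to 3385733, and Etfb on chromosome 7 from 43444083 to 43457800. Of the members, Acadvl overlaps the gene Dvl2 on the other strand. Dvl2 had 565 UMIs in the classes used here, and whether the counting used strand was not given in the sources used here.

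UMIs (unique molecular identifiers) count captured RNA molecules. Ex 1 held 32969739 UMIs in 7012 barcodes and Ex 2 held 23918964 in 5297 barcodes. Sed 1 held 37563756 UMIs in 7992 barcodes and Sed 2 held 41027638 in 8224 barcodes. Of 28442 distinct barcode sequences, 83 occurred in more than 1 library. After filtering, 5763 and 4097 Ex cells and 6839 and 7141 Sed cells remained. The median mitochondrial share was 3.92% and 4.36% in Ex against 2.61% and 2.95% in Sed. Clusters were named from marker lists, with the ending -like, and without the members among the clustering genes. Macrophage-like cells numbered 3720 (Kupffer-like, the resident liver macrophages, and other macrophage-like cells), monocyte-like cells 3542, T-like cells 3196 and endothelial-like cells 1123, although CD45 beads are meant to leave endothelial cells behind. The UMIs of each class were summed per library, and levels are given as CPM, UMIs scaled to the UMI total of that sum. The sums ranged from 73754 UMIs in 41 endothelial-like cells of Sed 1 to 10554964 UMIs in 1434 monocyte-like cells of Sed 2. All 10 members passed the filter on low counts in the macrophage-like, monocyte-like and T-like fits, and 9 did in endothelial-like cells, where Cpt2 was not tested.

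The make-up of the classes differed between the groups, and this touches each comparison of Ex with Sed below. Kupffer-like cells gave 12.0% and 8.27% of the macrophage-like UMIs in Ex, against 36.7% and 63.2% in Sed. A cluster led by Chil3 made up 13.2% and 13.6% of the monocyte-like cells in Ex, against 85.0% and 66.4% in Sed, and a cluster led by Tppp3 made up the rest. Among T-like cells a cluster led by Cd3d held 60.3% and 50.9% in Ex, against 18.3% and 18.4% in Sed, while a cluster led by Gzmk held 3.71% and 3.83% in Ex, against 37.7% and 59.7% in Sed. In the endothelial-like class a cluster led by Plpp3 had 130 and 337 cells in Ex and no cell in Sed. Another cluster, led by Abcc9, scored higher on the endothelial marker list than on any other list, with 13 of 13 markers detected. No endothelial marker was among its leading genes, so it did not pass the naming rule and was not used. It held 1 and 4 cells in Ex against 59 and 174 cells in Sed. Of this cluster and the endothelial-like class together, that was 0.297% and 0.625% in Ex against 59.0% and 61.3% in Sed.

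Macrophage-like, monocyte-like, T-like and endothelial-like cells were ranked by mean CPM over the 4 libraries. Among these classes monocyte-like cells had the highest level of 8 of the 10 members, macrophage-like cells of 1 (Cpt2) and endothelial-like cells of 1 (Hadhb). T-like cells had the lowest level of 5 members (Cpt1a, Cpt2, Acadm, Etfa and Etfb). Cells outside this ranking had higher means than monocyte-like cells for some members. Kupffer-like cells alone had 168 CPM of Etfb (monocyte-like 133 CPM). NK-like cells had 84.1 CPM of Hadha (74.5 CPM) and 37.4 CPM of Acadvl (31.0 CPM). Conventional and plasmacytoid dendritic-like cells had 187 and 340 CPM of Acadl (89.8 CPM). The classes were compared with edgeR's quasi-likelihood test across 11037 genes, with libraries as blocks and a Benjamini-Hochberg adjusted p of 0.05 as the threshold. The TMM scaling of that fit set endothelial-like levels lower than plain CPM does, by 0.29 relative to macrophage-like, 0.34 relative to monocyte-like and 0.31 relative to T-like cells (log2), so orders by CPM and by the test can differ there. Of the members, 7 of 10 passed between monocyte-like and T-like cells, 6 of them higher in monocyte-like cells, and 58.3% of all genes passed. Between monocyte-like and endothelial-like cells 7 of 10 passed, 6 of them higher in monocyte-like cells, against 56.2% of all genes. Of macrophage-like against T-like cells 4 of 10 passed (3 higher, 1 lower, 58.9% of all genes), and of macrophage-like against endothelial-like cells 4 of 10 (3 higher, 1 lower, 50% of all genes). Macrophage-like against monocyte-like cells gave 3 of 10, all lower in macrophage-like cells, against 30.5% of all genes, and T-like against endothelial-like cells gave 3 of 10 (1 higher, 2 lower) against 58.5%. The members' shares were thus near or below those of all genes, apart from 70% against 58.3% and 56.2% in the comparisons of monocyte-like with T-like and with endothelial-like cells.

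**Figure D1:**
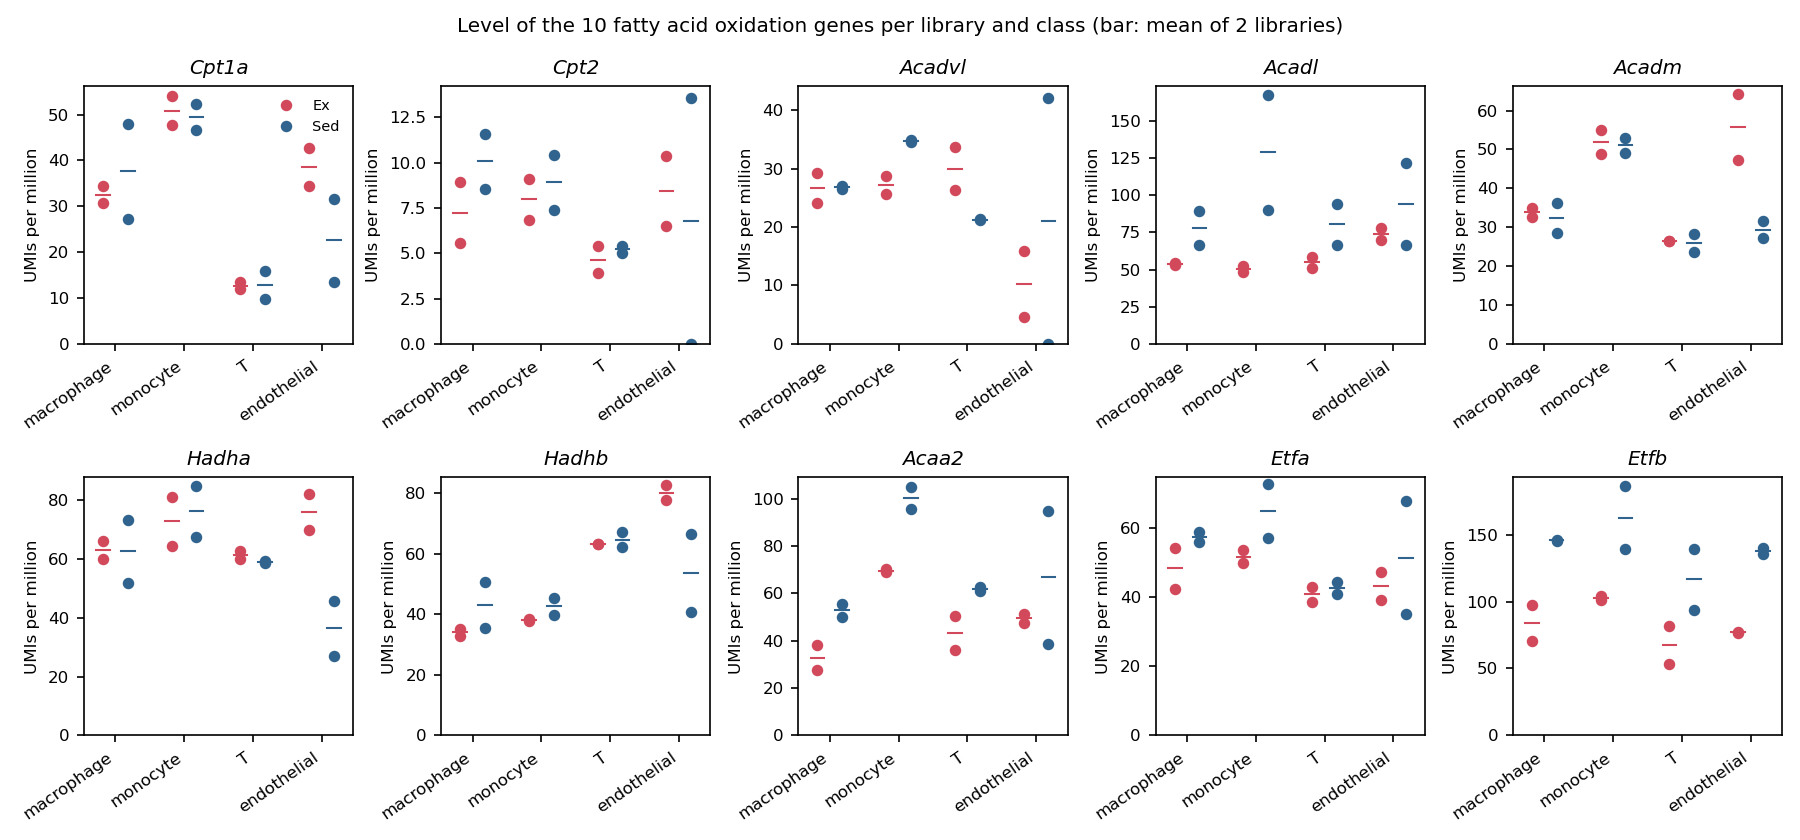
Level of each of the 10 genes in CPM (y axis) in macrophage-like, monocyte-like, T-like and endothelial-like cells (x axis), with 1 point per library, Ex left of Sed, and a bar at the mean of each group of 2. Cpt1a lies at 9.68 to 15.9 CPM in T-like cells and at 46.6 to 54.0 CPM in monocyte-like cells, and the Etfb points of Ex lie below those of Sed in each of these 4 classes.

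Of the carnitine shuttle, Cpt1a, the enzyme that sets the rate of long-chain fatty acid entry, had the widest range among the 4 classes. Its level in monocyte-like cells was 54.0 and 47.7 CPM in Ex 1 and Ex 2, against 46.6 and 52.4 CPM in Sed 1 and Sed 2. In T-like cells it was 13.4 and 12.0 CPM in Ex, against 9.68 and 15.9 CPM in Sed. The monocyte-like level was above the T-like level in 4 of 4 libraries without overlap, by 2.04 ± 0.16 (log2 difference ± SE, adjusted p = 7.65e-08, edgeR). Macrophage-like cells as a whole stood between, with 34.4 and 30.7 CPM in Ex and 27.2 and 48.0 CPM in Sed. Their parts differed. Kupffer-like cells had 54.5 and 59.3 CPM in Ex (47 and 15 UMIs) and 20.02 and 56.2 CPM in Sed (24 and 273 UMIs). These lay above the monocyte-like level in Ex 1, Ex 2 and Sed 2 and below it in Sed 1, which was not tested. Other macrophage-like cells had 28.2 to 33.9 CPM. The macrophage-like sums were above T-like cells by 1.45 ± 0.16 (log2, adjusted p = 2.45e-06, edgeR) and at -0.59 ± 0.15 against monocyte-like cells (log2, adjusted p = 0.00753, edgeR). Endothelial-like cells had 42.8 and 34.5 CPM in Ex and 13.6 and 31.6 CPM in Sed, the last 2 from 1 and 9 UMIs. T-like cells stood at -1.17 ± 0.19 against them (log2, adjusted p = 0.000114, edgeR), and macrophage-like cells did not pass against them (0.27 ± 0.18, adjusted p = 0.231, edgeR). The difference of macrophage-like from monocyte-like cells lost its call without Ex 1 (adjusted p = 0.0721) or without Sed 1 (adjusted p = 0.0520), both with edgeR. Cpt2, the inner-membrane partner, was counted in few molecules. It had 3.90 to 5.43 CPM in T-like, 5.56 to 11.6 CPM in macrophage-like and 6.86 to 10.4 CPM in monocyte-like cells. It was higher in macrophage-like than in T-like cells (0.80 ± 0.30, adjusted p = 0.0306, edgeR) and in monocyte-like than in T-like cells (0.78 ± 0.30, adjusted p = 0.0346, edgeR). Each call was lost when any 1 of the 4 libraries was left out, with edgeR adjusted p from 0.0515 to 0.114 and from 0.0541 to 0.121.

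The acyl-CoA dehydrogenases did not share 1 order of classes. Acadvl, for very long chains, averaged 31.0 ± 4.57 CPM in monocyte-like, 26.8 ± 2.07 CPM in macrophage-like and 25.7 ± 5.89 CPM in T-like cells (SD, n = 4 libraries). In endothelial-like cells it had 4.65 and 15.97 CPM in Ex, against no UMI in Sed 1 and 42.1 CPM in Sed 2, where a count of 0 in Sed 1 allows up to 40.7 CPM. Endothelial-like cells were the lowest class by the test. Monocyte-like cells stood 1.38 ± 0.43 above them (log2, adjusted p = 0.0125), macrophage-like cells 1.11 ± 0.43 (adjusted p = 0.0417) and T-like cells 1.08 ± 0.43 (adjusted p = 0.0417), all with edgeR. These calls rest on 54 UMIs in all and were lost without Ex 1 or without Ex 2 (edgeR adjusted p from 0.0665 to 0.467), and the macrophage-like and T-like ones also without Sed 1 (edgeR adjusted p of 0.0827 and 0.0723).

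Acadl, for long chains, passed in none of the 6 class comparisons. In monocyte-like cells it had 52.7 and 48.6 CPM in Ex, against 168 and 90.3 CPM in Sed. Means over 4 libraries were 89.8 ± 55.2 CPM in monocyte-like, 84.2 ± 25.7 CPM in endothelial-like, 67.7 ± 18.8 CPM in T-like and 65.8 ± 16.9 CPM in macrophage-like cells (SD, n = 4). Acadm, for medium chains, had 48.8 and 55.1 CPM in monocyte-like cells in Ex and 53.0 and 49.2 CPM in Sed, against 26.5 and 26.5 CPM in T-like cells in Ex and 23.7 and 28.2 CPM in Sed. Monocyte-like cells were above T-like cells in every library, by 1.02 ± 0.16 (log2, adjusted p = 6.07e-05, edgeR). Acadm was also lower in macrophage-like than in monocyte-like cells (-0.69 ± 0.15, adjusted p = 0.00372, edgeR) and lower in T-like than in endothelial-like cells (-0.58 ± 0.19, adjusted p = 0.0154, edgeR). The T-like difference was lost without Ex 1 (adjusted p = 0.0879) or without Ex 2 (adjusted p = 0.369), both with edgeR.

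The trifunctional protein is an octamer of alpha subunits (Hadha, hydratase and long-chain dehydrogenase) and beta subunits (Hadhb, thiolase), and its subunit genes ordered the classes differently. Hadha had 62.7 and 59.9 CPM in T-like cells in Ex and 59.3 and 58.6 CPM in Sed, and in macrophage-like cells 66.1 and 59.8 CPM in Ex and 51.7 and 73.3 CPM in Sed. It passed in 1 of 6 class comparisons, monocyte-like above endothelial-like cells (0.54 ± 0.19, adjusted p = 0.0242, edgeR). That call was lost without Ex 1 (adjusted p = 0.0583) or without Sed 2 (adjusted p = 0.145), both with edgeR. Hadhb had 63.4 and 63.2 CPM in T-like cells in Ex and 62.1 and 67.3 CPM in Sed, against 33.0 and 35.3 CPM in macrophage-like cells in Ex and 35.5 and 50.7 CPM in Sed. The T-like values lay above the macrophage-like ones without overlap, and macrophage-like cells stood at -0.75 ± 0.14 against T-like cells (log2, adjusted p = 0.000378, edgeR). Monocyte-like cells had 38.4 and 37.7 CPM of Hadhb in Ex and 39.9 and 45.4 CPM in Sed. They stood at -0.63 ± 0.14 against T-like cells (log2, adjusted p = 0.00151, edgeR). Against endothelial-like cells, which had 82.8 and 77.7 CPM in Ex and 40.7 and 66.6 CPM in Sed, Hadhb was also lower in macrophage-like cells (-0.67 ± 0.16, adjusted p = 0.00333, edgeR) and in monocyte-like cells (-0.55 ± 0.16, adjusted p = 0.0104, edgeR). Both of these calls were lost without Ex 1 or without Ex 2, with edgeR adjusted p from 0.0572 to 0.138, and both T-like calls held in every leave-one-out fit.

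The ratio of Hadhb to Hadha UMIs, taken within each library and examined after these levels had been seen, was 1.07 ± 0.0581 in T-like and 1.27 ± 0.259 in endothelial-like cells, against 0.617 ± 0.0913 in macrophage-like and 0.547 ± 0.0607 in monocyte-like cells (SD, n = 4 libraries). The ratio was higher in T-like than in macrophage-like cells in 4 of 4 libraries, by 0.80 ± 0.17 on the log2 scale (SD over libraries), and likewise than in monocyte-like cells, by 0.97 ± 0.20. Endothelial-like cells stood above macrophage-like cells by 1.04 ± 0.25 and above monocyte-like cells by 1.204 ± 0.23, each in 4 of 4 libraries. Each of these 4 comparisons had p = 0.125 in an exact two-sided sign-flip permutation test over 4 libraries, also after adjustment over the 4, which is the smallest value that 4 libraries can give. Of the remaining classes, neutrophil-like cells had the lowest mean ratio, 0.416 ± 0.182. Plasmacytoid dendritic-like cells had the highest of any class, 1.61 ± 1.16, with 0.909 to 3.33 in single libraries. B-like cells had 0.907 ± 0.108, NK-like cells 0.788 ± 0.153 and conventional dendritic-like cells 0.775 ± 0.202. UMIs are counted at transcript ends, and how well each gene's end is captured was not measured, so the ratio is read between classes and not as the balance of the subunits.

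**Figure D2:**
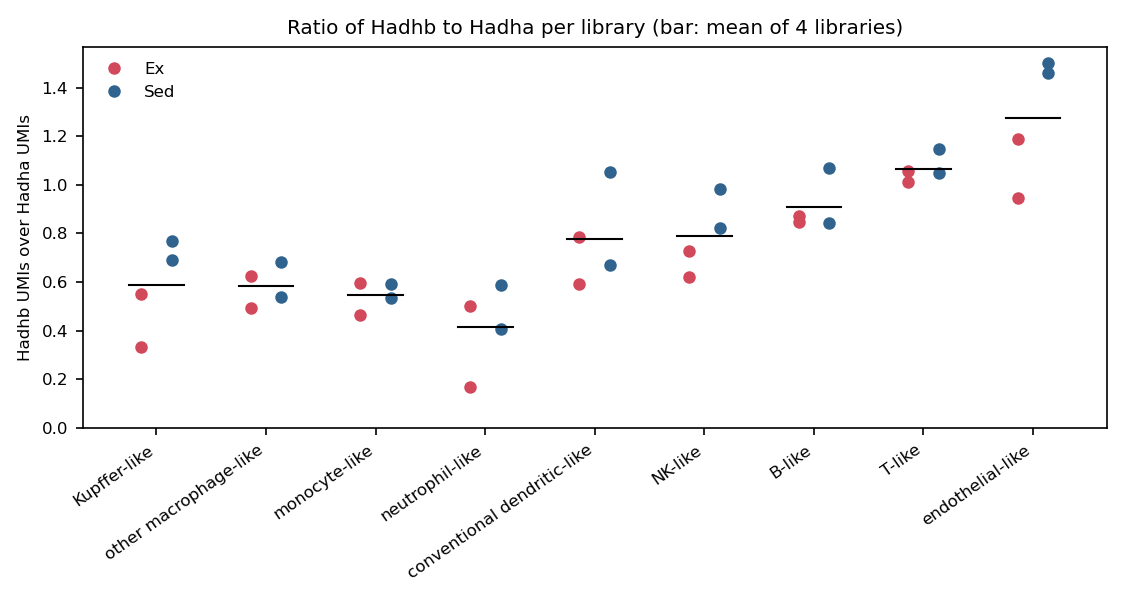
Ratio of Hadhb to Hadha UMIs per library (y axis) in 9 classes (x axis), with Ex points left of Sed points and a bar at the mean of the 4 libraries. The T-like points, at 1.01 to 1.15, lie above all Kupffer-like, other macrophage-like and monocyte-like points, of which the highest is 0.770.

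Acaa2, the thiolase of medium-chain rounds, was the member that set monocyte-like cells furthest apart from macrophage-like cells. Monocyte-like cells had 68.8 and 70.3 CPM in Ex and 95.7 and 105 CPM in Sed, and macrophage-like cells had 38.3 and 27.5 CPM in Ex and 55.7 and 50.2 CPM in Sed. Macrophage-like cells stood at -1.05 ± 0.15 against monocyte-like cells (log2, adjusted p = 0.000123, edgeR), lower in 4 of 4 libraries. Acaa2 was also higher in monocyte-like than in T-like cells (0.74 ± 0.15, adjusted p = 0.000705, edgeR) and than in endothelial-like cells (0.92 ± 0.18, adjusted p = 0.000494, edgeR), and these calls held in every leave-one-out fit.

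The electron transfer flavoprotein subunits were both above the T-like and endothelial-like levels in monocyte-like cells. Their mean CPM ran from high to low in the order monocyte-like, macrophage-like, endothelial-like and T-like. Etfa, the alpha subunit, averaged 58.4 ± 10.1, 53.0 ± 7.24, 47.4 ± 14.5 and 41.8 ± 2.47 CPM in that order (SD, n = 4), and Etfb, the beta subunit, averaged 133 ± 39.5, 115 ± 37.3, 107 ± 35.2 and 92.2 ± 35.9 CPM. Monocyte-like cells were above T-like cells for Etfa (0.51 ± 0.13, adjusted p = 0.00336, edgeR) and for Etfb (0.59 ± 0.14, adjusted p = 0.00211, edgeR). On the scale of the fit, T-like and endothelial-like cells changed places, with T-like cells higher by 0.21 ± 0.16 for Etfa (adjusted p = 0.276) and by 0.08 ± 0.15 for Etfb (adjusted p = 0.698), neither of which passed with edgeR. Monocyte-like cells were above endothelial-like cells for Etfa (0.72 ± 0.16, adjusted p = 0.00123, edgeR) and for Etfb (0.67 ± 0.15, adjusted p = 0.00183, edgeR). Etfb between monocyte-like and T-like cells lost its call without Ex 2 (edgeR adjusted p = 0.0553). Macrophage-like cells were above endothelial-like cells for Etfa (0.53 ± 0.16, adjusted p = 0.0114, edgeR) and for Etfb (0.40 ± 0.15, adjusted p = 0.0436, edgeR). Against T-like cells they were higher for Etfa (0.32 ± 0.13, adjusted p = 0.0448, edgeR). The last 3 calls were each lost without Ex 1 or without Ex 2, with edgeR adjusted p from 0.102 to 0.323, and those of Etfb against endothelial-like and Etfa against T-like cells also without Sed 1 (edgeR adjusted p of 0.0830 and 0.1203). Between the macrophage-like classes 1 of 10 members passed, Etfb, against 22.1% of all genes. It had 182 and 154 CPM in Kupffer-like cells in Ex and 184 and 150.2 CPM in Sed, against 86.1 and 63.1 CPM in other macrophage-like cells in Ex and 125 and 137 CPM in Sed (0.68 ± 0.19, adjusted p = 0.0264, edgeR). The call was lost without Ex 1 (adjusted p = 0.130), without Ex 2 (adjusted p = 0.0979) or without Sed 1 (adjusted p = 0.0515), all with edgeR.

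Between exercised and sedentary mice 1 member passed in 1 class: Etfb fell in endothelial-like cells. In that class 1 of 9 tested members passed, against 16.7% of 7311 genes. No member passed in macrophage-like cells, where 2.29% of 10589 genes did, in Kupffer-like cells (0.0659% of 7593), in other macrophage-like cells (1.21% of 9460), in monocyte-like cells (2.17% of 10210) or in T-like cells (2.06% of 9868), all with edgeR. At an unadjusted p of 0.05, 2 members passed in macrophage-like, 0 in Kupffer-like, and 3 each in other macrophage-like, monocyte-like and T-like cells, where 17.7%, 8.26%, 14.9%, 17.7% and 13.4% of all genes did, and 1 of 9 did in endothelial-like cells, where 30.8% of all genes did. The DESeq2 Wald test called 0 members in macrophage-like, Kupffer-like, other macrophage-like, T-like and endothelial-like cells and 1 in monocyte-like cells, Acadl. The members' median log2 change was -0.22 in macrophage-like, 0.12 in Kupffer-like, -0.12 in other macrophage-like, -0.25 in monocyte-like, -0.10 in T-like and -0.25 in endothelial-like cells, where the median of all genes was -0.01, -0.01, -0.01, -0.01, -0.00 and 0.06.

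**Figure D3:**
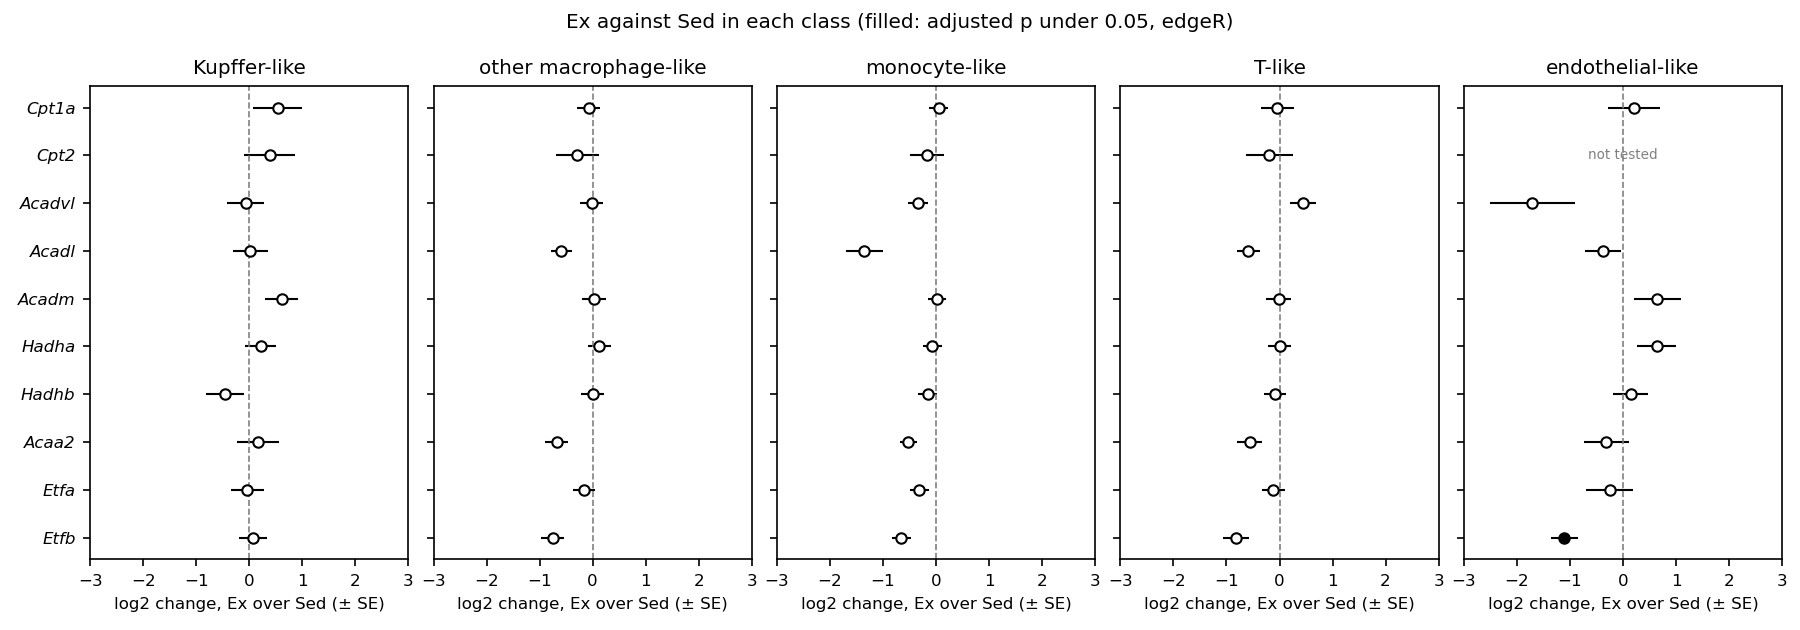
Log2 change of each member, Ex over Sed, with SE (x axis) for the 10 members (y axis) in 5 classes, with a filled point where the edgeR adjusted p was under 0.05. The only filled point is Etfb in endothelial-like cells at -1.11, and the Etfb points of other macrophage-like, monocyte-like and T-like cells lie at -0.75, -0.65 and -0.82.

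Etfb had 77.2 and 76.8 CPM in endothelial-like cells of Ex 1 and Ex 2, against 136 and 140.3 CPM in Sed 1 and Sed 2. These values rest on 83 and 178 UMIs in Ex and on 10 and 40 UMIs in Sed. The groups did not overlap, as for 20% of all genes in the lower direction, and the change was -1.11 ± 0.26 (log2, adjusted p = 0.0126, edgeR). A fit of Ex against Sed without 1 library leaves its group with 1, which is then assumed to vary like the libraries of the other group. The call was lost without Ex 1 (adjusted p = 0.0953), without Ex 2 (adjusted p = 0.163) or without Sed 2 (adjusted p = 0.329), with edgeR, and with the DESeq2 Wald test (adjusted p = 0.142). Within the Clec4g-led cluster alone, the 1 endothelial-like cluster found in all libraries, Etfb had 67.2 and 79.2 CPM in Ex against 136 and 140.3 CPM in Sed (-0.96 ± 0.34, adjusted p = 0.0989, edgeR). With clusters at resolution 0.5 the change was -0.12 (edgeR adjusted p = 0.763), and with doublets kept it was -0.32 (edgeR adjusted p = 0.298). The unused Abcc9-led cluster had 66.0 and 65.2 CPM of Etfb in Sed. Kupffer cell markers, 10 of 10 of them detected in this class, summed to 1280 and 549 CPM in Ex against 4976 and 8069 CPM in Sed. The 11 other macrophage markers summed to 4563 and 4528 CPM in Ex against 14453.5 and 18028 CPM in Sed. The 13 endothelial markers summed to 21516 and 23881 CPM in Ex against 8488 and 9861 CPM in Sed, so in both Sed libraries they were below the other macrophage markers. Their part in the Etfb result was not tested. TMM scaling moved changes in this class by 0.26 on the log2 scale relative to plain CPM, and by at most 0.08 in the other classes.

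The other endothelial-like members did not pass. Hadha had 69.7 and 82.0 CPM in Ex against 27.1 and 45.6 CPM in Sed (0.63 ± 0.37, adjusted p = 0.282, edgeR), and Acadm 47.4 and 64.3 CPM in Ex against 27.1 and 31.6 CPM in Sed (0.64 ± 0.44, adjusted p = 0.359, edgeR). Together with Cpt1a and Hadhb these made 4 members without overlap and higher in Ex, where 44.9% of all genes were. The Sed values of Hadha and Acadm came from 2 UMIs each in Sed 1 and from 13 and 9 UMIs in Sed 2. The unused Abcc9-led cluster, with 59 and 174 cells in Sed, had 77.7 and 83.4 CPM of Hadha and 75.8 and 57.5 CPM of Hadhb in Sed. It had 15.5 and 39.2 CPM of Acadm and 15.5 and 22.4 CPM of Cpt1a in Sed.

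In monocyte-like cells 6 of 10 members were lower in both Ex libraries than in both Sed libraries (Acadvl, Acadl, Hadhb, Acaa2, Etfa and Etfb), where 25.3% of all genes were. No member was higher in both, where 24.2% of all genes were. Acadl, at 52.7 and 48.6 CPM in Ex against 168 and 90.3 CPM in Sed, had the widest gap, and its Sed libraries differed from each other more than its Ex libraries did. The change was -1.35 ± 0.34 (log2, adjusted p = 0.124, edgeR). It passed in 7 of 17 alternatives, with the DESeq2 Wald test (adjusted p = 0.00177) among them. In 2 of the 7 only 1 Sed library was left, at -0.78 without Sed 1 (edgeR adjusted p = 0.00321) and at -1.76 without Sed 2 (edgeR adjusted p = 5.79e-16). In 2 more (resolution 2, and pathway genes kept for clustering) the class took in a Cxcl9-led cluster. Etfb had 101 and 104 CPM in Ex against 139 and 186 CPM in Sed (-0.65 ± 0.17, adjusted p = 0.0776, edgeR), and -0.81 with Sed 2 as the 1 Sed library left (edgeR adjusted p = 0.000947). Acaa2 had 68.8 and 70.3 CPM in Ex against 95.7 and 105 CPM in Sed (-0.53 ± 0.16, adjusted p = 0.114, edgeR). Cpt1a, at 0.05 ± 0.18, and Acadm, at 0.02 ± 0.17 (log2), had overlapping groups. Neutrophil markers, 10 of 10 detected, summed to 591 and 1578 CPM in monocyte-like cells in Ex against 13334 and 5858 CPM in Sed, and the 9 monocyte markers to 5705 and 6593 CPM in Ex against 23003 and 12827 CPM in Sed. Their part in these values was not tested.

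Within the monocyte-like clusters the members' values were closer for Etfb than for Acadl. In the Chil3-led cluster Etfb had 161 and 169 CPM in Ex against 146 and 204 CPM in Sed, and in the Tppp3-led cluster 89.7 and 87.9 CPM in Ex against 84.3 and 143 CPM in Sed, with overlap in both. Log2 changes of Etfb were -0.15 ± 0.22 and -0.30 ± 0.25 there. Acadl in the Tppp3-led cluster had 44.0 and 40.2 CPM in Ex against 145 and 79.1 CPM in Sed (-1.33 ± 0.31, adjusted p = 0.131, edgeR), without overlap. In the Chil3-led cluster, of which Ex gave 73 and 42 cells, Acadl had 96.4 and 82.1 CPM in Ex against 171 and 95.0 CPM in Sed (-0.64 ± 0.32, adjusted p = 0.627, edgeR), with overlap. Acaa2 did not overlap in either cluster, at 64.8 and 73.5 CPM in Ex against 97.2 and 108 CPM in Sed in the Chil3-led one, and neither change passed.

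**Figure D4:**
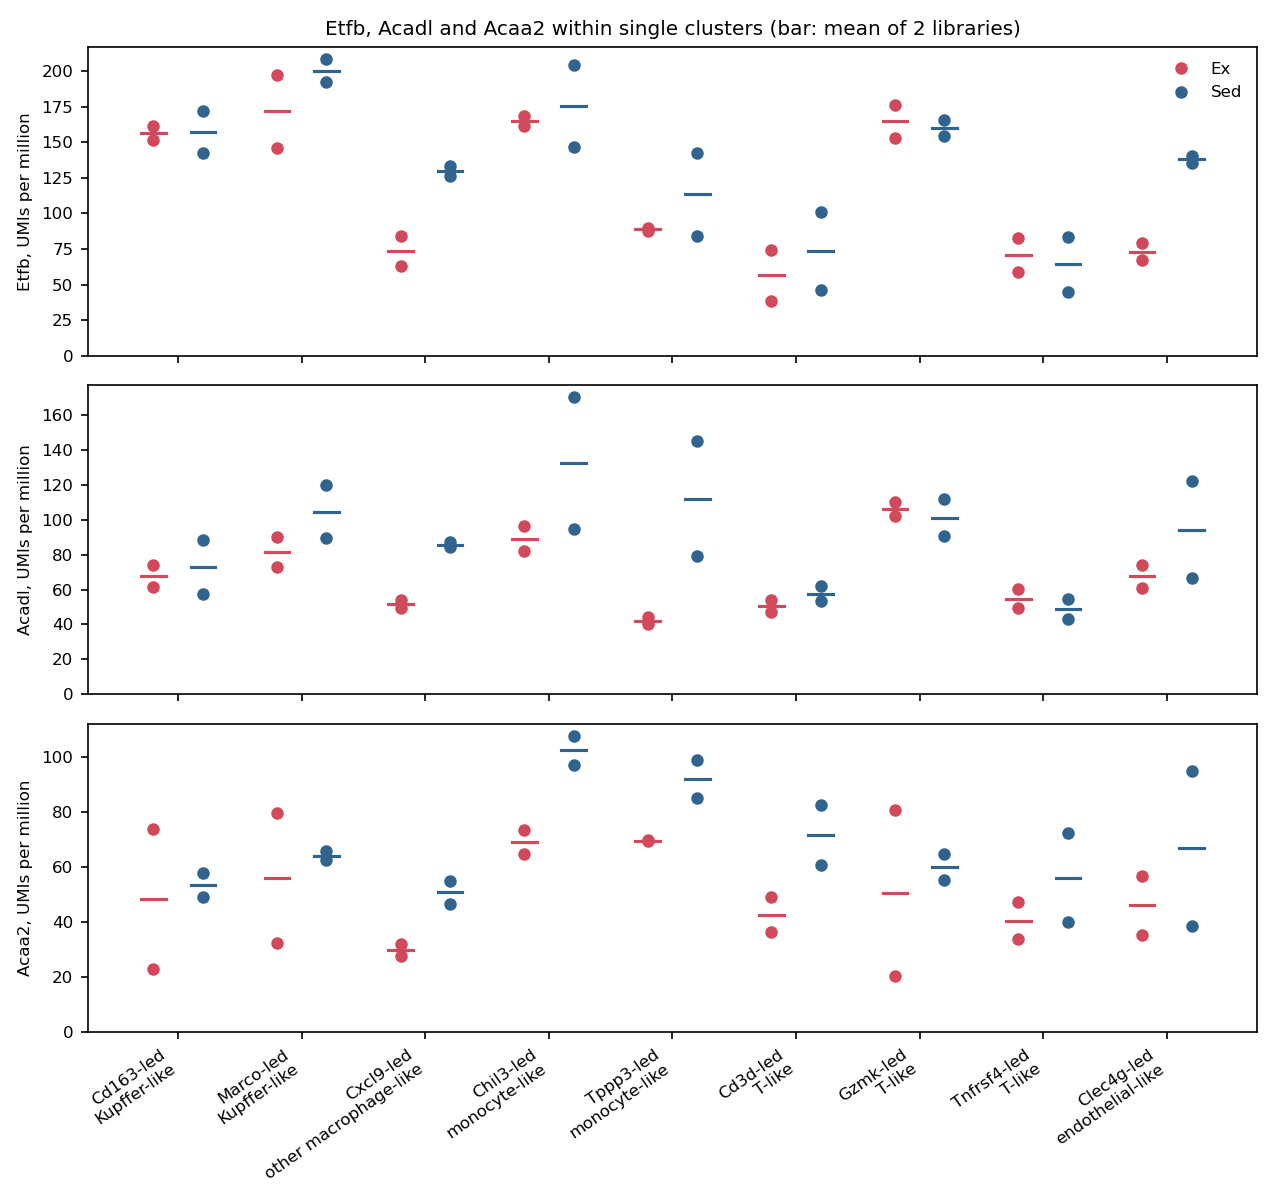
Level of Etfb, Acadl and Acaa2 in CPM (y axes) in those clusters of the compared classes that had 20 or more cells from each library (x axis), with 1 point per library, Ex left of Sed, and a bar at the mean of each group of 2. Etfb values of Ex and Sed overlap in 7 of the 9 clusters and do not in the Cxcl9-led and Clec4g-led ones.

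In all macrophage-like cells 5 of 10 members were lower in both Ex libraries (Acadl, Hadhb, Acaa2, Etfa and Etfb), where 30.8% of all genes were, and none was higher in both, where 21.2% were. The Kupffer-like part of this sum was smaller in Ex, as given above, and Etfb averaged 168 CPM in Kupffer-like and 103 CPM in other macrophage-like cells. The other macrophage-like cells gave 4 of these (all but Hadhb), where 28.9% of all genes were lower and 21.1% higher. Kupffer-like cells gave none, where 24.8% were lower. In other macrophage-like cells Etfb had 86.1 and 63.1 CPM in Ex against 125 and 137 CPM in Sed (-0.75 ± 0.22, adjusted p = 0.154, edgeR). Acaa2 had 32.9 and 27.4 CPM in Ex against 53.6 and 47.4 CPM in Sed (-0.68 ± 0.22, adjusted p = 0.204, edgeR), and Acadl had 48.6 and 53.1 CPM in Ex against 84.0 and 74.2 CPM in Sed (-0.59 ± 0.20, adjusted p = 0.214, edgeR). The Cxcl9-led cluster alone, which held 54.2% to 97.9% of these cells, gave like values, with Etfb at -0.76 ± 0.21 (adjusted p = 0.0755), Acaa2 at -0.73 ± 0.23 (adjusted p = 0.114) and Acadl at -0.70 ± 0.20 (adjusted p = 0.0800), all with edgeR. Against 1 Sed library alone, Etfb in other macrophage-like cells had an edgeR adjusted p of 0.0499 without Sed 1. In all macrophage-like cells such fits gave Etfb 0.0174 without Sed 1 and 0.0305 without Sed 2, and Acadl 0.0391 without Sed 2 (edgeR adjusted p). Marker lists of other cell types also differed between the groups, in both directions. In other macrophage-like cells erythroid markers (6 of 6 detected) summed to 29.4 and 10.3 CPM in Ex against 1363 and 1499.8 CPM in Sed, and platelet markers (4 of 4) to 123 and 117 CPM in Ex against 1565 and 512 CPM in Sed. Cholangiocyte markers (4 detected) summed there to 64.2 and 92.7 CPM in Ex against 2568 and 846 CPM in Sed. Their list shares Spp1 with the other macrophage list, and Pf4 of the platelet list was a leading gene of other macrophage-like clusters at resolution 2. Neutrophil markers (10 of 10) summed to 272 and 267 CPM in Ex against 1775 and 957 CPM in Sed. B cell markers went the other way, at 206 and 221 CPM in Ex against 37.7 and 40.6 CPM in Sed. So did T cell markers, at 175 and 128 CPM in Ex against 37.2 and 92.6 CPM in Sed, and the conventional dendritic and the mast cell and basophil markers. Hepatocyte markers summed to 299 and 326 CPM in all macrophage-like cells in Ex against 398 and 652 CPM in Sed, with 20 of 20 detected. Of these, Alb, Apoa1 and Ttr overlapped between the groups, with Alb at 20.9 and 22.2 CPM in Ex against 78.3 and 17.4 CPM in Sed. Cps1 did not overlap, at 0 and 0.98 CPM in Ex against 1.22 and 1.04 CPM in Sed. The part of these markers, or of other cell types, in the members' values was not tested.

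Kupffer-like cells had Etfb at 182 and 154 CPM in Ex against 184 and 150.2 CPM in Sed, a change of 0.07 ± 0.27 (log2). Acadl was at 84.7 and 67.2 CPM in Ex against 98.5 and 62.6 CPM in Sed (0.02 ± 0.33), with overlap for both. Acadm, at 44.1 and 55.3 CPM in Ex against 28.4 and 35.6 CPM in Sed, was the 1 member without overlap and higher in Ex, where 17.3% of all genes were (0.61 ± 0.31, adjusted p = 0.678, edgeR). The Kupffer-like sum of Ex 2 had 253124 UMIs from 107 cells, with 14 UMIs of Acadm and 39 of Etfb. Most Kupffer-like cells in each library, 57.9% to 88.9%, were in a Marco-led cluster with a median of 883.5 UMIs per cell.

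In T-like cells Etfb had 81.5 and 53.6 CPM in Ex against 94.0 and 140 CPM in Sed (-0.82 ± 0.24, adjusted p = 0.108, edgeR). Acadl had 58.7 and 51.3 CPM in Ex against 66.5 and 94.4 CPM in Sed (-0.59 ± 0.22, adjusted p = 0.232, edgeR), and Acaa2 had 50.3 and 35.9 CPM in Ex against 60.9 and 62.6 CPM in Sed (-0.56 ± 0.23, adjusted p = 0.281, edgeR). These 3 did not overlap and were lower in Ex, where 18.6% of all genes were. Acadvl, at 33.8 and 26.3 CPM in Ex against 21.2 and 21.3 CPM in Sed, and Hadha, at 62.7 and 59.9 CPM in Ex against 59.3 and 58.6 CPM in Sed, did not overlap and were higher in Ex, where 25.3% of all genes were, and neither passed. In the 3 T-like clusters with at least 20 cells in every library the Etfb groups overlapped. It had 74.2 and 38.7 CPM in Ex against 45.9 and 101 CPM in Sed in the Cd3d-led cluster, 82.9 and 58.6 CPM in Ex against 44.9 and 83.5 CPM in Sed in the Tnfrsf4-led cluster, and 176 and 153 CPM in Ex against 154 and 166 CPM in Sed in the Gzmk-led cluster. Of the smaller clusters, the Trdc-led one overlapped too, and the Iglc1-led one did not, with 57.4 and 56.8 CPM in Ex (19 and 66 cells) against 132 and 116 CPM in Sed (12 and 48 cells). With Sed 2 as the 1 Sed library left, Etfb in the whole class stood at -1.02 (edgeR adjusted p = 0.00458). NK cell markers, 9 of 9 detected, summed to 497 and 366 CPM in T-like cells in Ex against 5214 and 7254 CPM in Sed. Their list holds Gzma, which was also a leading gene of the Gzmk-led T-like cluster, whose share was larger in Sed as given above. The part of these markers in the members' values was not tested.

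The summed level of the 10 genes was 524 ± 7.87 CPM in Ex against 720.1 ± 16.02 CPM in Sed in monocyte-like cells (SD, n = 2 libraries each), a ratio of 0.727. In macrophage-like cells it was 417 ± 47.2 CPM in Ex against 547 ± 26.0 CPM in Sed. In other macrophage-like cells it was 395 ± 38.7 CPM in Ex against 513 ± 22.8 CPM in Sed, and in T-like cells 405 ± 47.5 CPM in Ex against 491 ± 66.8 CPM in Sed. Kupffer-like cells had 605 ± 68.1 CPM in Ex against 585 ± 2.15 CPM in Sed, and endothelial-like cells 513 ± 12.9 CPM in Ex against 520.2 ± 31.4 CPM in Sed. Libraries of the groups did not overlap in the macrophage-like, other macrophage-like, monocyte-like and T-like sums. An exact two-sided permutation test of 2 against 2 libraries cannot go below p = 0.333, so these are given as levels only. Mitochondrially encoded genes took 3.44% and 3.39% of the monocyte-like UMIs in Ex against 2.79% and 2.98% in Sed, and leaving them out of the total gave a ratio of 0.731.

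Whether the change with exercise differed among macrophage-like, monocyte-like, T-like and endothelial-like cells was tested with the class by group terms of 1 edgeR fit. No member passed, where 9.46% of 11037 genes did. The smallest unadjusted p values were those of Acadl (0.0591, adjusted p = 0.216) and Acadvl (0.0844, adjusted p = 0.263), and none of the 10 was under 0.05. Etfb, called in endothelial-like cells alone, had an adjusted p of 0.930, so that its change was not shown to differ between classes.

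The rest of the pathway was read from 10 lists of 124 genes, with 4 members (Cpt1a, Cpt2, Etfa and Etfb) among them. No gene passed in any class among the carnitine shuttle and carnitine supply (11 genes), the other mitochondrial beta-oxidation enzymes (16 genes) or ketone body metabolism (6 genes), with edgeR. Per class 4 to 6, 10 to 15 and 3 to 4 of their genes were tested, and these zeros stand beside shares of all genes of 0.0659% to 2.29% in 5 of the classes and 16.7% in endothelial-like cells. The median change of the other beta-oxidation enzymes was -0.35 in macrophage-like, -0.37 in Kupffer-like, -0.27 in other macrophage-like, -0.22 in monocyte-like, -0.30 in T-like and -0.09 in endothelial-like cells. Among them Eci2, an enoyl-CoA isomerase, had 27.8 and 25.8 CPM in macrophage-like cells in Ex against 63.9 and 45.6 CPM in Sed (-0.94 ± 0.24, adjusted p = 0.0962, edgeR). Slc25a20, the carrier that moves acylcarnitine across the inner membrane, had 21.9 and 22.9 CPM in macrophage-like cells in Ex against 15.6 and 22.0 CPM in Sed (0.31 ± 0.25, adjusted p = 0.564, edgeR).

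Over the 10 lists 16 genes passed in at least 1 class, with 21 calls. Of the genes 5 were in fatty acid uptake and activation, 4 among PPAR target genes, 3 in lipolysis and 1 in each of 4 other lists. Of all genes, 16.7% passed in endothelial-like cells and 0.0659% to 2.29% in each other class. The share of all genes passing in at least 1 class was not taken, so the 16 is given as a count only. Fabp7, a fatty acid binding protein, fell in macrophage-like cells, with 59.2 and 51.6 CPM in Ex against 512 and 714 CPM in Sed (-3.39 ± 0.26, adjusted p = 0.00797, edgeR). It also fell in other macrophage-like (-2.62 ± 0.28, adjusted p = 0.00551), T-like (-2.78 ± 0.55, adjusted p = 0.0122) and endothelial-like cells (-4.94 ± 0.98, adjusted p = 0.0465), with edgeR. Its level was highest in Kupffer-like cells, and in T-like cells it was only 1.12 and 1.04 CPM in Ex against 6.25 and 8.68 CPM in Sed. Kupffer cell markers (10 of 10 detected) summed to 34.9 and 21.9 CPM in T-like cells in Ex against 40.9 and 132 CPM in Sed. In other macrophage-like cells they summed to 359 and 164 CPM in Ex against 279 and 2120.0 CPM in Sed. Their part in these falls was not tested. In Kupffer-like cells it had 417 and 553 CPM in Ex against 1312 and 1092 CPM in Sed (-1.28 ± 0.29, adjusted p = 0.223, edgeR). The fall in macrophage-like cells lost its call without Ex 1 (adjusted p = 0.211) or without Ex 2 (adjusted p = 0.358), and the one in T-like cells likewise (adjusted p of 0.161 and 0.251), with edgeR. The one in endothelial-like cells was lost without Sed 1 (adjusted p = 0.375) or without Sed 2 (adjusted p = 0.431), with edgeR. Fabp5 fell in other macrophage-like cells, with 132 and 136 CPM in Ex against 1070 and 566 CPM in Sed (-2.57 ± 0.32, adjusted p = 0.0196, edgeR). In Kupffer-like cells it had 187 and 119 CPM in Ex against 73.4 and 72.2 CPM in Sed (1.16, not called). With clusters at resolution 2 the call of Fabp7 in macrophage-like cells was lost (-1.58, adjusted p = 0.460), as were those of Fabp7 (-0.36, adjusted p = 0.801) and Fabp5 (-1.62, adjusted p = 0.585) in other macrophage-like cells, with edgeR. Slc27a1, a fatty acid transport protein, fell there as well, with 6.96 and 5.70 CPM in Ex against 21.3 and 17.0 CPM in Sed (-1.50 ± 0.30, adjusted p = 0.0460, edgeR). It was lost without Ex 1 (adjusted p = 0.108) or without Ex 2 (adjusted p = 0.198). Cd36, the scavenger receptor that takes up fatty acids, rose in monocyte-like cells, with 12.9 and 13.9 CPM in Ex against 2.30 and 1.52 CPM in Sed (2.798 ± 0.37, adjusted p = 0.00601, edgeR). Its call was lost without Ex 1 (adjusted p = 0.231) or without Ex 2 (adjusted p = 0.295), and in the Tppp3-led cluster alone the change was 1.63 (adjusted p = 0.176), with edgeR. Fabp4 fell in endothelial-like cells, with 1095 and 1159 CPM in Ex against 2657 and 2153 CPM in Sed (-1.35 ± 0.22, adjusted p = 0.00176, edgeR). Of the called genes of these lists it was the 1 that kept its call in every alternative run.

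Of the regulators of the pathway, 23 genes with PPAR receptors, their co-factors and the kinase AMPK, 1 passed in 1 class, endothelial-like cells, where 16.7% of all genes did. Nrip1, a nuclear receptor co-repressor, rose in endothelial-like cells, with 125 and 161 CPM in Ex against 81.4 and 35.1 CPM in Sed (1.39 ± 0.38, adjusted p = 0.0264, edgeR). It was lost without Ex 2 (adjusted p = 0.173) or without Sed 2 (adjusted p = 0.376). Nr1h3, the liver X receptor alpha, had 91.8 and 93.8 CPM in macrophage-like cells in Ex against 189 and 348 CPM in Sed (-1.46 ± 0.30, adjusted p = 0.0589, edgeR). Of 12 PPAR target genes outside beta-oxidation, Acot1, an acyl-CoA thioesterase, fell in macrophage-like cells, with 3.62 and 2.94 CPM in Ex against 16.5 and 24.1 CPM in Sed (-2.52 ± 0.32, adjusted p = 0.0219, edgeR). It was lost without Ex 1 (adjusted p = 0.246) or without Ex 2 (adjusted p = 0.397). Hilpda, which blocks lipolysis, fell in T-like cells (-1.19 ± 0.23, adjusted p = 0.0103, edgeR) and in endothelial-like cells (-2.13 ± 0.43, adjusted p = 0.00557, edgeR). The T-like call was lost without Ex 1 (adjusted p = 0.189) or without Ex 2 (adjusted p = 0.177). Its changes within the Cd3d-led, Tnfrsf4-led and Gzmk-led clusters were -0.69, 0.31 and 0.0445, none of which passed with edgeR. The endothelial-like call was lost without Sed 2 (adjusted p = 0.467). In endothelial-like cells Ucp2 also fell (-0.81 ± 0.24, adjusted p = 0.0354, edgeR) and Txnip rose (1.19 ± 0.27, adjusted p = 0.0105, edgeR). Ucp2 was lost without Ex 1, Ex 2 or Sed 2 (adjusted p from 0.171 to 0.311) and Txnip without Ex 2 (adjusted p = 0.0719).

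Among lipolysis genes Abhd5, the activator of adipose triglyceride lipase, fell in monocyte-like cells, with 19.5 and 23.9 CPM in Ex against 45.4 and 46.7 CPM in Sed (-1.10 ± 0.19, adjusted p = 0.0183, edgeR). It was lost without Ex 1 (adjusted p = 0.357) or without Ex 2 (adjusted p = 0.372), and stood at -0.59 and -0.60 in the Chil3-led and Tppp3-led clusters, where it did not pass. Plin3, a lipid droplet coat protein, rose in T-like cells, with 24.6 and 23.2 CPM in Ex against 8.12 and 7.96 CPM in Sed (1.51 ± 0.29, adjusted p = 0.0101, edgeR). It was lost without Ex 1 (adjusted p = 0.138) or without Ex 2 (adjusted p = 0.164). Lipa, the lysosomal acid lipase, fell in endothelial-like cells (-1.22 ± 0.24, adjusted p = 0.00449, edgeR), as did the peroxisomal thiolase Acaa1a (-1.36 ± 0.37, adjusted p = 0.0256, edgeR). Lipa was lost without Sed 2 (adjusted p = 0.170), and Acaa1a without Ex 1, Ex 2 or Sed 2 (adjusted p from 0.0756 to 0.926). Of fatty acid synthesis, Scd1, the stearoyl-CoA desaturase, fell in macrophage-like cells, with 12.4 and 16.02 CPM in Ex against 33.6 and 58.9 CPM in Sed (-1.66 ± 0.31, adjusted p = 0.0456, edgeR). In other macrophage-like cells alone it had 3.64 and 7.84 CPM in Ex against 1.45 and 4.24 CPM in Sed (0.87, adjusted p = 0.532, edgeR), the opposite sign. These cells gave most of all UMIs of that sum in Ex, but not most of its Scd1. Kupffer-like cells gave the rest, and their part of the sum was larger in Sed, as given above. Their part in the fall was not tested. Scd1 also fell in endothelial-like cells (-1.74 ± 0.47, adjusted p = 0.0256, edgeR). Both were lost without Ex 1 or without Ex 2 (adjusted p from 0.307 to 0.449), and the endothelial-like one also without Sed 2 (adjusted p = 0.413).

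Across the 16 sums of 4 classes and 4 libraries, the genes whose log2 level was most like the members' mean standardised level were found by Pearson correlation, of 8086 genes with a mean of at least 10 CPM. They were Dhrs4, a peroxisomal dehydrogenase-reductase (r = 0.879), Psmd13, a proteasome subunit (0.855), the deubiquitinase Usp5 (0.838), Eif2b1 of translation initiation (0.833) and the aminopeptidase Dnpep (0.827). Dhrs4 averaged 30.4 CPM in monocyte-like, 18.3 CPM in macrophage-like, 18.3 CPM in endothelial-like and 14.95 CPM in T-like cells. Among the members themselves this r ran from 0.719 for Acadm, 0.708 for Acaa2 and 0.692 for Cpt1a to 0.142 for Acadvl and -0.17 for Hadhb, which thus did not follow the members' shared order. The 16 sums share libraries and differ in depth, so these correlations describe the sums and carry no test.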

How the data were processed

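Input was 1 deposited table of UMI counts, genes by cell barcodes, which per the file headers came from Cell Ranger 6.1.1 on joined libraries. The submitters' processing notes name version 7.0.0 and the builds mm10 and GRCm38. Counting options are not given in the sources used here. Barcodes stand on 28525 of the 51140 columns (135480097 UMIs), and the remaining 22615 columns were not used. A barcode's numeric ending was taken to follow the row order of the library list, and any comparison between Ex and Sed depends on that reading.

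Filtering required 200 genes and a mitochondrial share of 10% or less. Scrublet (in scanpy 1.11.5), by its own thresholds, marked 0.0165% and 0.0236% of the Ex cells against 3.47% and 4.24% of the Sed cells. The top scores were therefore removed at a rate of 0.8% per 1000 cells: 293 and 144 cells from Ex, 422 and 462 from Sed. Leiden clusters (igraph implementation through scanpy, resolution 1) were built on 30 components of 2000 variable genes and 15 neighbours. The members and other pathway genes were left out of the variable genes. Names came from marker lists: a score of 1.0 or more and 3 markers in 10% of the cells. A marker of the class also had to be among the leading genes, with no majority of another class there. A class entered a test if every library had 30 of its cells.

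Summed UMIs were fitted in R 4.3.3 with edgeR 4.0.16 (quasi-likelihood with robust priors, TMM scaling, genes kept by filterByExpr), and p-values were adjusted over all genes by Benjamini-Hochberg, with 0.05 as threshold. The Wald test of DESeq2 1.42.0 was run beside it. SEs of log2 changes are the change divided by the square root of F. A count of 0 was given a floor of 3 counts, which covers counting error only. Python was 3.11.15 and matplotlib 3.10.9 drew the figures. The members, the gene lists and the naming rule were chosen with earlier results of these data known. By that rule the text could name the 10 members, up to 4 called genes of each list by size of change or else up to 2 of smallest p (not all printed), and the 5 genes most correlated with the members.

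Other settings tried were size factors from DESeq2 in place of TMM, all genes unfiltered, stricter cells (500 genes, 5% mitochondrial share), doublets left in, cells over 1% hepatocyte marker UMIs removed, replicate number as a block, each library left out, sums thinned to the smallest one, resolutions of 0.5 and 2, and pathway genes allowed among the variable genes. Fits within single clusters were added after seeing the data. Simulated counts for macrophage-like cells (10385 genes run) gave calls for 41 of 100 genes at 2-fold, 99 of 100 at 4-fold and 9 of 10185 without change. For T-like cells (9690 genes run) these were 45 of 100, 98 of 100 and 1 of 9490.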

Additional observations from a re-analysis of the deposited data

How the results depend on the processing

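The stricter cell filter was not run for Kupffer-like and endothelial-like cells or between classes, nor kept pathway genes for other macrophage-like cells, since a library then had under 30 cells of a class (25 other macrophage-like cells in Ex 2 with pathway genes kept, where 338 were named otherwise). Between classes 8 alternatives were run per pair, the leave-one-out fits among them, so not every setting listed above was tried there. The cause of each shift was not tested. Without the low-count filter 1223 genes were called in macrophage-like cells (243 with it), 161 in Kupffer-like (5), 680 in other macrophage-like (114), 1050 in monocyte-like (222) and 545 in T-like cells (203), and 2152 in the test between classes (1044). DESeq2 called 454 genes in macrophage-like, 39 in Kupffer-like and 627 in endothelial-like cells (1218 with edgeR). Thinned sums gave 9 in Kupffer-like and 468 in endothelial-like cells. Resolution 0.5 gave 17 in Kupffer-like, 273 in other macrophage-like and 334 in T-like cells, and resolution 2 gave 0 in macrophage-like, 3 in Kupffer-like, 0 in other macrophage-like and 1251 in monocyte-like cells. With doublets kept there were 96 in macrophage-like, 19 in Kupffer-like and 318 in other macrophage-like cells. Leaving out cells with hepatocyte markers gave 1 in Kupffer-like cells, and the stricter cell filter 511 in other macrophage-like cells. With pathway genes kept for clustering there were 0 in macrophage-like, 0 in Kupffer-like and 1108 in monocyte-like cells. Single clusters gave 3 (Marco), 269 (Cxcl9), 1 (Chil3), 69 (Tppp3), 21 (Cd3d), 29 (Tnfrsf4) and 486 (Clec4g).

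Members called between Ex and Sed numbered 1 in macrophage-like, 1 in other macrophage-like, 3 in monocyte-like and 1 in T-like cells without the low-count filter, 1 in monocyte-like cells with DESeq2, 1 in T-like cells at resolution 0.5, and 3 in monocyte-like cells at resolution 2 or with pathway genes kept, where a Cxcl9-led cluster of 1011 or 1351 cells, otherwise macrophage-like, was named monocyte-like. In endothelial-like cells 0 were called with DESeq2, at resolution 0.5, with doublets kept or in the Clec4g-led cluster. The test between classes called 2 members without the filter. Macrophage-like against endothelial-like cells gave 2 members without the filter, and T-like against endothelial-like cells 5 with doublets kept. In the main fit 50% and 58.5% of all genes passed in these pairs. Scd1 in endothelial-like cells turned to 0.89 at resolution 0.5 and 0.98 with doublets kept, and Hilpda in T-like cells to 0.31 in the Tnfrsf4-led and 0.0445 in the Gzmk-led cluster. Of the members' 560 log2 class differences in other settings, 47 lost a call and 9 gained one. The sign changed in 23, none of which passed in either fit. Without mitochondrially encoded genes the summed level was 542 CPM in monocyte-like cells in Ex and 741 CPM in Sed, 609 CPM in Kupffer-like cells in Sed and 539 CPM in endothelial-like cells in Ex.

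Leaving out 1 library at a time, which between Ex and Sed leaves 1 library in a group, gave 0 to 2093 genes in macrophage-like, 0 to 142 in Kupffer-like, 67 to 649 in other macrophage-like, 0 to 1217 in monocyte-like, 29 to 561 in T-like and 574 to 1179 in endothelial-like cells, 239 to 1786 in the test between classes and 3420 to 5811 between macrophage-like and endothelial-like cells. Members called ranged from 0 to 2 in macrophage-like, 0 to 1 in other macrophage-like, 0 to 2 in monocyte-like, 0 to 1 in T-like and 0 to 1 in endothelial-like cells, and from 0 to 1 in the test between classes. Between classes they ranged from 2 to 4 (macrophage-like against T-like), 0 to 4 (macrophage-like against endothelial-like), 4 to 7 (monocyte-like against endothelial-like), 1 to 3 (T-like against endothelial-like) and 0 to 1 (Kupffer-like against other macrophage-like). With all libraries, 58.9%, 50%, 56.2%, 58.5% and 22.1% of all genes passed in these pairs, in that order.

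Whether the replicate numbers pair the samples was not settled. The correlation of same-numbered libraries' deviations was 0.0293 in macrophage-like, 0.145 in Kupffer-like, 0.00735 in other macrophage-like, 0.115 in monocyte-like, 0.0979 in T-like and 0.0480 in endothelial-like cells. With 2 libraries per group such values cannot exclude a pairing. With a replicate block 24 genes were called in macrophage-like, 20 in other macrophage-like, 593 in monocyte-like and 307 in T-like cells, and 2 members, Acadl and Etfb, in monocyte-like cells. Depth limits the endothelial-like values most, since Sed 1 had 41 cells.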

Other observations

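Acadl stood out in the dendritic-like classes, which were not tested between the groups. In plasmacytoid dendritic-like cells it had 230 and 202 CPM in Ex against 525 and 405 CPM in Sed, and in conventional dendritic-like cells 114 and 121 CPM in Ex against 293 and 221 CPM in Sed, without overlap in either class. The plasmacytoid class had 17 cells in its smallest library. Its mean Acadl level over the 4 libraries, 340.3 CPM, was above those of the other 10 classes and class sums, of which conventional dendritic-like cells had the next, 187 CPM. Etfb in neutrophil-like cells had 58.0 and 47.6 CPM in Ex against 25.03 and 16.5 CPM in Sed. That class was of different make-up by group: a Camp-led cluster gave 82.2% and 78.8% of its UMIs in Ex, against 37.6% and 29.2% in Sed, and a Retnlg-led cluster the rest. Etfb had 68.3 and 52.5 CPM in Ex against 52.4 and 31.3 CPM in Sed in the Camp-led cluster. In the Retnlg-led cluster it had 10.3 and 29.3 CPM in Ex against 8.59 and 10.3 CPM in Sed. These values carry no test.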
